A study of Homo sapiens with 6 samples.

Results

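COPII and COPI coats carry proteins between the endoplasmic reticulum (ER) and the Golgi, and 42 genes of this route were taken from a named list by symbol. That list was chosen with earlier results of these data known. The list holds the coats, the GTPases that assemble them, ER exit site organisers, tethers and SNAREs, cargo receptors and KDEL receptors. All 42 were among the 11048 gene symbols listed with an expression value in each of the 6 libraries. The cells were MM1.S, a human multiple myeloma line, so every group shares 1 cell line, and the whole series holds 2 libraries per group. They received the DMSO vehicle, 3 µM CCF642 or 3 µM CCF642-34 for 6 h, and mRNA was then sequenced. CCF642 inhibits the ER disulfide isomerase PDIA1, and CCF642-34 is an analog of it. The labels do not say whether the libraries of a group came from separate cultures, so the spread between libraries behind the p values may be technical. The fit described below takes most of that spread from all genes together and little from each gene's own libraries.

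Secretory proteins leave the ER in COPII vesicles. The GTPase SAR1 recruits the inner coat of SEC23 and SEC24, which picks cargo, and SEC13 and SEC31 then form the outer cage. COPI vesicles, built on the GTPase ARF1, return receptors, SNAREs and escaped ER residents, the last of which are caught by KDEL receptors. Plasma cells and their malignant counterparts secrete immunoglobulin in bulk and depend on this route, and several of its genes are known targets of the XBP1 and ATF6 branches of the unfolded protein response.

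Values are given as deposited CPM, a gene's reads as a share of its library's total, behind which stood 20567313 to 28459677 reads per library. Fold changes are differences of log2(CPM + 1) after TMM (trimmed mean of M-values) scaling, which understate the changes of genes with low expression. They were tested with limma over all 11048 genes, and a gene was called at a Benjamini-Hochberg adjusted p under 0.05. TMM factors were 1.053 and 1.054 with DMSO and 0.957 to 0.992 with the compounds, so a member can be level in CPM and still have a fold change above 0. Of 10 plasma cell markers, 10 were listed, at 27.5 to 4321 CPM, and their summed level lay between 7020 and 10000 CPM. Of the markers of other cell types, 0 of 4 myeloid and 0 of 4 mature B cell genes were listed, as were 1 of 4 for T cells, 2 of 4 for epithelium and 2 of 4 for fibroblasts, none above 10.53 CPM. In such bulk RNA, fewer cells of a kind and less RNA per cell cannot be told apart.

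Most of the members rose with each compound. With CCF642-34, 35 of 42 members were called higher than DMSO and 2 lower, with a median log2 fold change of 0.43. Of all listed genes, 29.7% were called higher and 27.9% lower in that comparison, with a median of 0.0067. With CCF642, 34 members were called higher and 6 lower, with a median of 0.59, against 31.8% higher and 31.3% lower of all listed genes and a median of −0.0066. A change of at least 2-fold was reached by 2 members with CCF642-34 (3.87% of all listed genes) and by 6 members with CCF642 (6.49%). With scaling to library size alone, the median of all listed genes moved to −0.078 with CCF642-34 and −0.13 with CCF642, and 2497 genes were called higher and 3972 lower with CCF642-34 and 2528 higher and 4738 lower with CCF642. The members then had medians of 0.34 and 0.48, with 32 called higher and 4 lower with CCF642-34 and 30 higher and 7 lower with CCF642. A linear model fitted to each gene alone called 32 members higher and 0 lower with CCF642-34, and 30 higher and 4 lower with CCF642. The calls it lost were those of ERGIC1, ERGIC2, LMAN2, SEC24C and SEC23IP with CCF642-34, and those of SAR1B, LMAN2, ERGIC2, TMED2, TMED9 and KDELR3 with CCF642. Summed over the 42 members, the deposited level was 9038 and 9090 CPM with DMSO, 11700 and 11750 CPM with CCF642, and 11810 and 11900 CPM with CCF642-34. Both comparisons use the same DMSO libraries, and so do all values given side by side below.

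**Figure D1:**
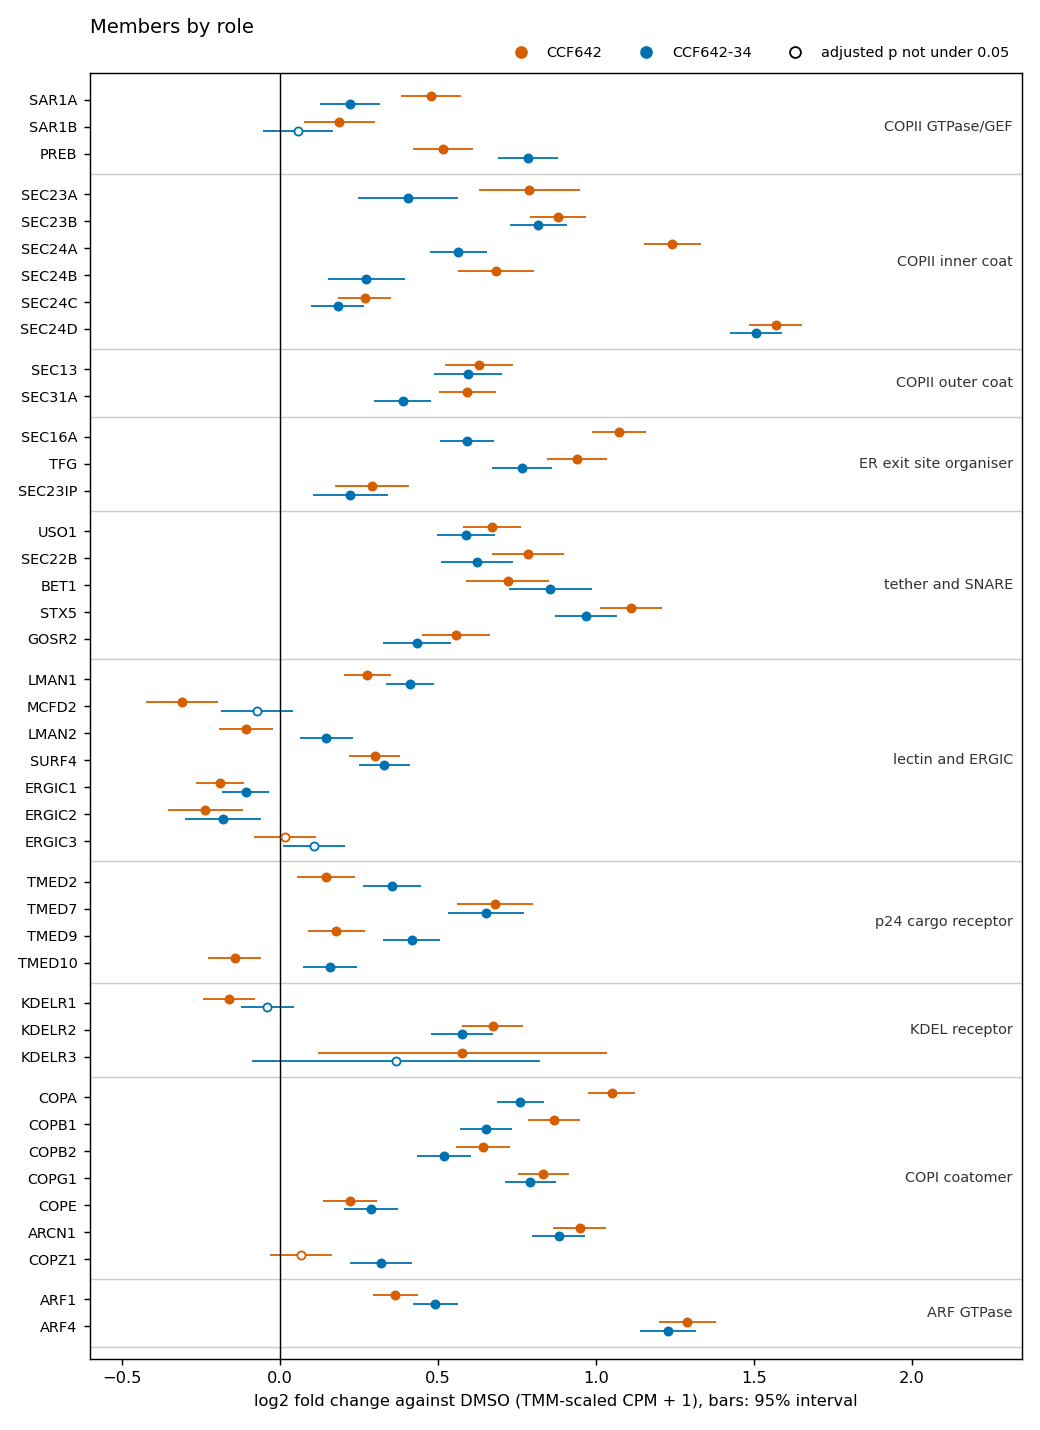
Log2 fold change of each of the 42 members against DMSO (horizontal axis), grouped by role, with CCF642 in orange and CCF642-34 in blue. Points are limma estimates and bars 95% intervals, and open points had an adjusted p of 0.05 or more. Coat, tether and SNARE genes lie to the right of 0, up to 1.57 for SEC24D, and the points left of 0 belong to cargo receptors and KDELR1.

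The promoters of the members were searched for elements of the unfolded protein response. RefSeq start sites on GRCh38.p14, each with 250 bases before and 50 after, were available for 36 of the 42 members, and none was matched for SEC24D, USO1, ERGIC1, TMED9, KDELR2 and ARF4. The core of the unfolded protein response element (UPRE), TGACGTGG on either strand, stood in the promoters of 9 of the 36 members (25%). It stood in those of 1.25% of the 8871 listed genes with a promoter and of 0.927% of all 27305 genes in the table. COPB2 held it at 2 sites and the other 8 members at 1 site each. These 10 matches are shown with 10 bases on each side, 5′ to 3′ on the strand that carries the motif, which is in capitals, because the same letters stand in genes of different complexes.
SEC23A, inner COPII coat, chr14:39103222-39103249 (−): cccctcctctTGACGTGGcagaggcggc
SEC24A, inner COPII coat, chr5:134648596-134648623 (+): tgagagtcggTGACGTGGcggcgaggcc
SEC16A, exit site organiser, chr9:136484708-136484735 (+): tcagtccggcTGACGTGGcaccagggcc
STX5, SNARE, chr11:62832050-62832077 (−): tacgtgtaggTGACGTGGccgcttccag
KDELR3, KDEL receptor, chr22:38468040-38468067 (−): ggccgggcggTGACGTGGccagggcggc
COPA, coatomer, chr1:160343228-160343255 (−): agagggtcgcTGACGTGGaggcgtccga
COPB1, coatomer, chr11:14499842-14499869 (+): agtccttggcTGACGTGGaagggggtgg
COPB2, coatomer, near site, chr3:139389633-139389660 (+): tcagactgacTGACGTGGaacttccggg
COPB2, coatomer, far site, chr3:139389826-139389853 (+): ctaagggccgTGACGTGGtgccgctgag
ARF1, GTPase of COPI, chr1:228082682-228082709 (+): ccggaggcgcTGACGTGGccgccgtcag

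Of the 10 matches, 5 lay on the strand of the gene and 8 lay within 50 bases of a start site, the exceptions being that of SEC24A, 172 bases before it, and the far site of COPB2, 156 bases before the nearer of 2 starts. The SEC24A match also falls inside the first exon of SAR1B (chr5:134648116-134649271 on GRCh38), a gene read in the opposite direction from an overlapping start. The shorter sequence ACGTGGC, which overlaps the UPRE core wherever a C follows it, stood in the promoters of 16 of the 36 members (44.4%), against 5.96% of the listed genes. In 6 members both matches overlapped, and 9 members held only the shorter one, of which the 5 that encode coat subunits are shown to set beside the first set.
SEC13, outer COPII coat, chr3:10321073-10321099 (+): caggtctcggACGTGGCagctcccggc
SEC31A, outer COPII coat, chr4:82900603-82900629 (+): ctgggacacaACGTGGCctgtcattgg
SEC24C, inner COPII coat, chr10:73744290-73744316 (+): cgaaatgcagACGTGGCagaagaagtg
ARCN1, coatomer, chr11:118572381-118572407 (+): ccggttgaagACGTGGCttggggccgc
COPG1, coatomer, chr3:129249588-129249614 (+): gcgctgggcgACGTGGCcagtcggggc

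Members with either sequence in a promoter were called higher with CCF642 in 18 of 18 cases, with a median log2 fold change of 0.72. Of the 18 members with a promoter and neither sequence, 11 were called higher and 5 lower with CCF642, with a median of 0.25. With CCF642-34 the counts were 17 higher and 0 lower of 18 with either sequence, median 0.54, and 13 higher and 1 lower of 18 with neither, median 0.28. The ranges of the 2 sets overlapped with each compound, and no test of the difference was made. The 2 sets also differ in role. The 5 members called lower with CCF642 were the receptors ERGIC2, KDELR1, LMAN2, MCFD2 and TMED10. The set with neither sequence also held the receptors ERGIC3, LMAN1 and TMED7. Only KDELR3, SURF4 and TMED2 were receptors in the set with either sequence. Sequence and role were not told apart. Of the 6 members without a promoter in the table, 5 were called higher and 1 lower with each compound. Their medians were 0.67 with CCF642 and 0.58 with CCF642-34. Among all 111 listed genes with the UPRE core, 47.7% were called higher and 25.2% lower with CCF642, with a median of 0.15, so the motif was also present in genes that fell. Among all 529 listed genes with ACGTGGC, 37.2% were called higher and 28.5% lower with CCF642, with a median of 0.027. Of the 8342 without ACGTGGC, 31.7% were called higher and 31.8% lower. With CCF642-34 the shares were 34.6% and 23.1% with ACGTGGC, and 29.9% and 28.6% without it. The ER stress elements ERSE (CCAAT and CCACG, 9 bases apart) and ERSE-II (ATTGG and CCACG, 1 base apart), the cAMP response element TGACGTCA and the C/EBP-ATF element TGATGCAA were found in 0 of the 36 members, and 0.158% to 3.89% of the listed genes held them. A match is a run of letters and does not show that a factor binds there.

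**Figure D2:**
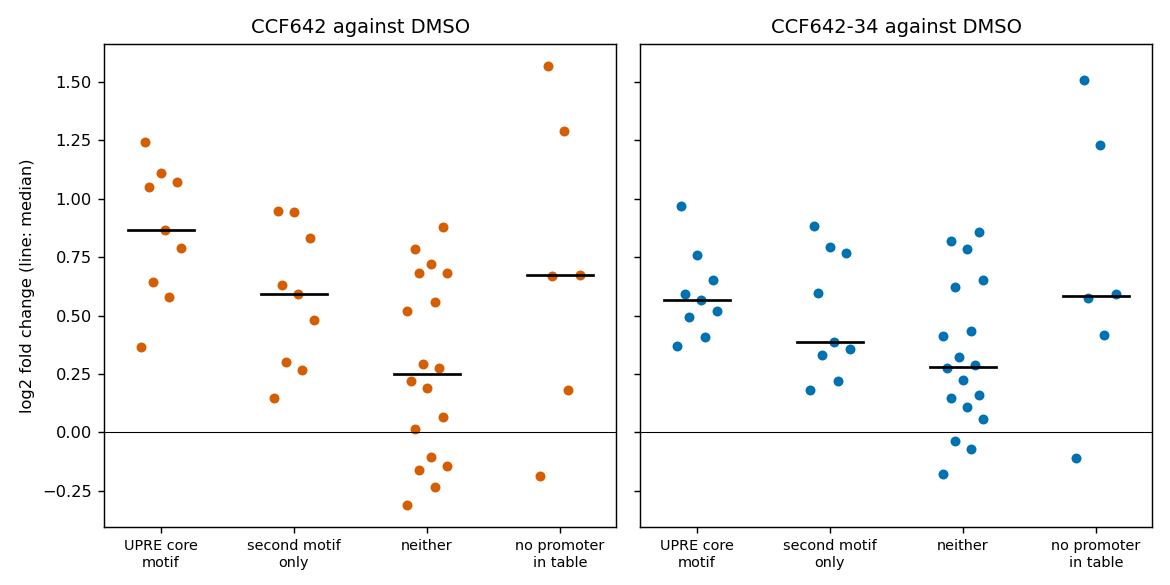
Log2 fold change against DMSO of the members (points) by the sequence found in their RefSeq promoters, with CCF642 on the left and CCF642-34 on the right. Black lines are medians over members. With CCF642 the 9 members with the UPRE core lie between 0.37 and 1.24, and the members with neither sequence lie between −0.31 and 0.88.

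Of the 3 genes that start the COPII coat, 2 were called higher with CCF642-34 and 3 with CCF642. PREB, the exchange factor that loads SAR1 with GTP at the ER membrane, measured 162.1 and 162.6 CPM with DMSO, 224.4 and 200.5 CPM with CCF642 and 267.1 and 260 CPM with CCF642-34. All 3 groups were separate, with CCF642-34 highest. Its log2 fold change was 0.79 (SE 0.047, adjusted p = 1.58e-19) with CCF642-34 and 0.52 (SE 0.047, adjusted p = 1.83e-13) with CCF642. SAR1A, a GTPase, rose by 0.48 on the log2 scale with CCF642 and 0.22 with CCF642-34. SAR1B, its paralog, measured 105.7 and 104.5 CPM with DMSO, 114.2 and 104.5 CPM with CCF642 and 98.31 and 107.4 CPM with CCF642-34, and the 3 groups overlapped. After TMM scaling SAR1B was called higher with CCF642 at 0.19 (SE 0.055, adjusted p = 0.00274), and this call was lost without CCF642 replicate 1 (0.13) and with scaling to library size alone (0.056). With CCF642-34 its value was 0.057 (SE 0.055, adjusted p = 0.387).

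All 6 inner coat genes were called higher with each compound. SEC24D, 1 of 4 SEC24 paralogs that select cargo, had the largest change of all members. It measured 193.5 and 185.1 CPM with DMSO, 501.1 and 525.9 CPM with CCF642 and 499.3 and 515 CPM with CCF642-34, so that each treated library lay far above each DMSO library and the compounds overlapped. Its log2 fold change was 1.51 (SE 0.041, adjusted p = 3.14e-33) with CCF642-34, or 2.84-fold, and 1.57 (SE 0.041, adjusted p = 3.25e-34) with CCF642, or 2.97-fold. SEC24A measured 144.7 and 143.6 CPM with DMSO, 312.5 and 311.1 CPM with CCF642 and 193.9 and 208 CPM with CCF642-34. Here the compounds separated, CCF642 standing highest and CCF642-34 between it and DMSO. SEC24A rose by 1.24 (SE 0.045, adjusted p = 2.62e-28) with CCF642 and by 0.56 (SE 0.045, adjusted p = 3.82e-15) with CCF642-34. The annotated SEC24A and SAR1B genes overlap by 483 bases head to head on chromosome 5, and the strand setting of the counting is not given in the sources used here, so reads in the overlap cannot be told apart.

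The other inner coat genes changed less. SEC24C measured 313.1 and 322.5 CPM with DMSO, 361.6 and 336.6 CPM with CCF642 and 334.5 and 343.6 CPM with CCF642-34, and its rise of 0.27 (SE 0.042, adjusted p = 2.59e-07) with CCF642 and 0.18 (SE 0.042, adjusted p = 2.05e-04) with CCF642-34 was the smallest in the group. With library size alone the call for SEC24C with CCF642-34 was lost (0.093). SEC24B rose by 0.68 with CCF642 and by 0.27 with CCF642-34. Of the 2 SEC23 genes, which activate the GTPase of SAR1, SEC23B rose by 0.88 and 0.82 in the same order, and SEC23A by 0.79 and 0.41.

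The outer cage and the exit site organisers rose as well, and each of the 5 genes was called higher with each compound. SEC13, which is also a subunit of the nuclear pore, measured 120.5 and 130.1 CPM with DMSO, 191.3 and 164.1 CPM with CCF642 and 180.1 and 176.2 CPM with CCF642-34, a rise of 0.59 (SE 0.053, adjusted p = 1.66e-13) with CCF642-34 and 0.63 (SE 0.053, adjusted p = 1.71e-14) with CCF642. SEC31A measured 191.4 and 195.3 CPM with DMSO, 255.8 and 277.4 CPM with CCF642 and 233.5 and 242.8 CPM with CCF642-34. Its libraries were lowest with DMSO and highest with CCF642, at 0.59 (SE 0.045, adjusted p = 6.01e-16) with CCF642 and 0.39 (SE 0.045, adjusted p = 3.94e-10) with CCF642-34. SEC16A, the scaffold that marks ER exit sites, measured 223.6 and 233.4 CPM with DMSO, 432.5 and 446.1 CPM with CCF642 and 332 and 316.3 CPM with CCF642-34. The 3 groups were separate, in the same order as for SEC31A. SEC16A rose by 1.07 (SE 0.042, adjusted p = 5.59e-27) with CCF642 and by 0.59 (SE 0.042, adjusted p = 7.64e-17) with CCF642-34. TFG, which organises exit sites with SEC16A, rose by 0.94 with CCF642 and by 0.77 with CCF642-34. SEC23IP, a binding partner of SEC23, measured 75.9 and 71.39 CPM with DMSO, 80.52 and 84.09 CPM with CCF642 and 82.05 and 79.79 CPM with CCF642-34, and its log2 fold changes were 0.29 (SE 0.059, adjusted p = 2.90e-05) with CCF642 and 0.22 (SE 0.059, adjusted p = 0.00107) with CCF642-34.

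All 5 tether and SNARE genes were called higher with each compound. STX5 encodes the syntaxin of the ER-Golgi SNARE complex, whose other members are GOSR2, BET1 and SEC22B. STX5 measured 90.65 and 91.86 CPM with DMSO, 181.8 and 179.7 CPM with CCF642 and 165.6 and 172.2 CPM with CCF642-34, with the CCF642 libraries slightly above those of CCF642-34. It rose by 1.11 (SE 0.049, adjusted p = 4.56e-25) with CCF642 and by 0.97 (SE 0.049, adjusted p = 1.74e-22) with CCF642-34. GOSR2 measured 85.39 and 88.87 CPM with DMSO, 118.8 and 115.9 CPM with CCF642 and 107.9 and 114.3 CPM with CCF642-34 and changed least, by 0.56 (SE 0.053, adjusted p = 9.14e-13) with CCF642 and 0.44 (SE 0.053, adjusted p = 1.44e-09) with CCF642-34. The other 3 rose by 0.67 (USO1, the tether p115), 0.79 (SEC22B) and 0.72 (BET1) on the log2 scale with CCF642, and by 0.59, 0.62 and 0.86 with CCF642-34.

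**Figure D3:**
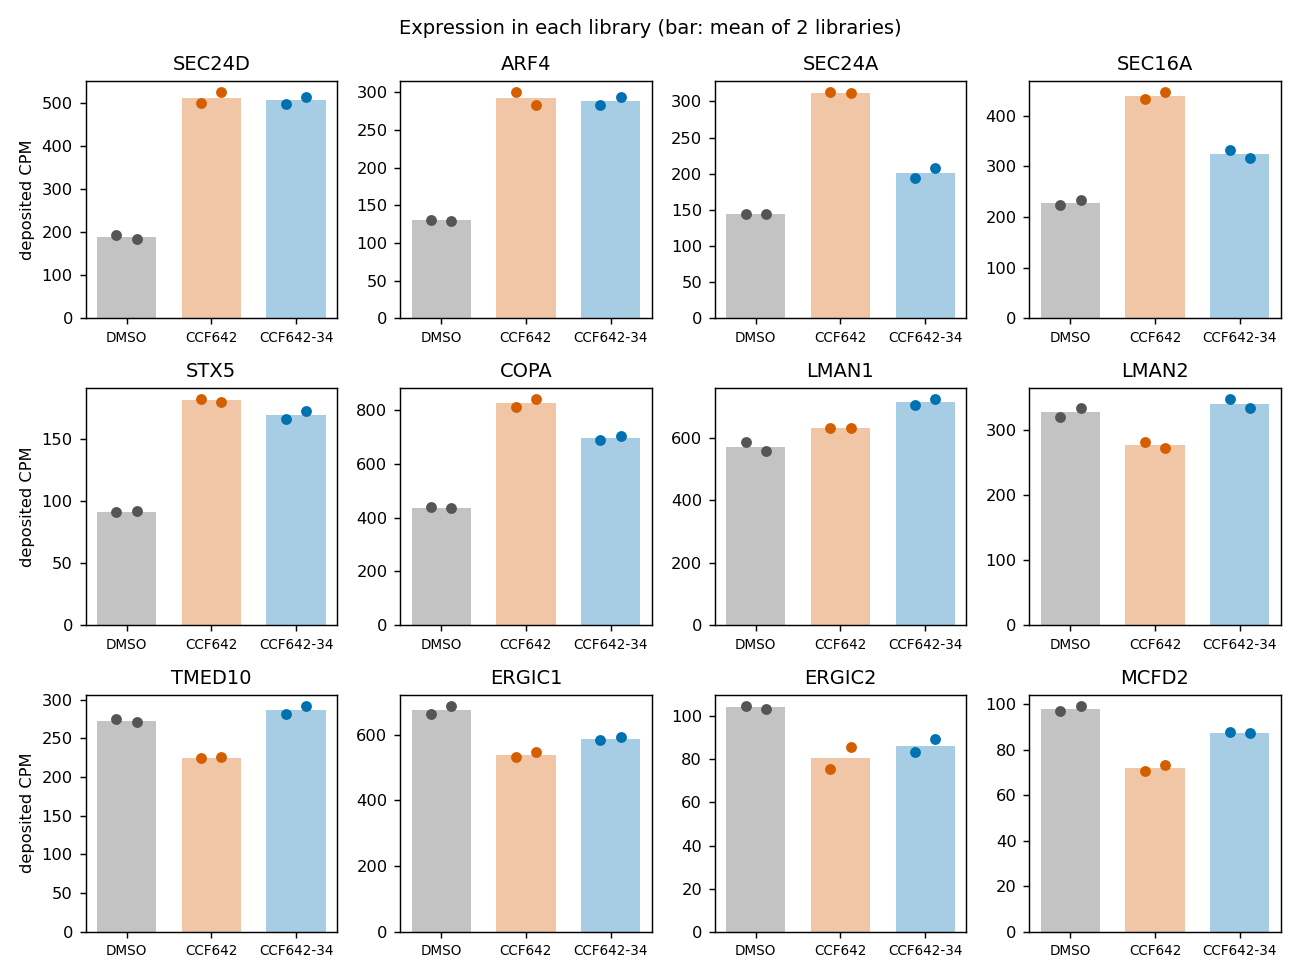
Deposited CPM (vertical axes, each from 0) of 12 members in each library (points), with the mean of the 2 libraries per group as a bar. SEC24D, ARF4, SEC24A, SEC16A, STX5 and COPA stand higher with both compounds, and ERGIC1, ERGIC2 and MCFD2 stand lower than DMSO in every treated library.

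Cargo receptors that collect lumenal proteins did not move as 1 group. Of the 7 lectin and ERGIC receptors, 3 were called higher and 2 lower with CCF642-34, and 2 higher and 4 lower with CCF642. As shares these were 42.9% higher and 28.6% lower with CCF642-34, and 28.6% and 57.1% with CCF642. Of all listed genes, 29.7% were higher and 27.9% lower with CCF642-34, and 31.8% and 31.3% with CCF642. LMAN1, the mannose lectin that exports coagulation factors, measured 587.1 and 559 CPM with DMSO, 633.4 and 632.1 CPM with CCF642 and 707 and 725.5 CPM with CCF642-34. The groups were separate, with CCF642-34 highest. LMAN1 rose by 0.41 (SE 0.037, adjusted p = 2.61e-13) with CCF642-34 and by 0.28 (SE 0.037, adjusted p = 1.10e-08) with CCF642. MCFD2, the partner that LMAN1 needs for that cargo, measured 96.91 and 99.24 CPM with DMSO, 70.55 and 73.2 CPM with CCF642 and 87.7 and 87.38 CPM with CCF642-34. Its treated libraries all lay below DMSO, and the call was made for CCF642 at −0.31 (SE 0.056, adjusted p = 5.23e-06) and not for CCF642-34 at −0.073 (SE 0.056, adjusted p = 0.274). With library size alone MCFD2 was also called lower with CCF642-34 (−0.16).

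LMAN2, a second lectin of the early secretory route, measured 320.4 and 334.6 CPM with DMSO, 281.7 and 272.5 CPM with CCF642 and 348 and 333.9 CPM with CCF642-34. The CCF642 libraries lay below all others, and those of DMSO and CCF642-34 overlapped. After TMM scaling LMAN2 was called lower with CCF642 at −0.11 (SE 0.042, adjusted p = 0.0247) and higher with CCF642-34 at 0.15 (SE 0.042, adjusted p = 0.00239). The second call was lost with library size alone (0.058), without DMSO replicate 1 (0.12) and without CCF642-34 replicate 1 (0.11). The first was lost without DMSO replicate 2 (−0.075) and without CCF642 replicate 2 (−0.087). SURF4, a receptor with many soluble cargoes, rose by 0.30 with CCF642 and by 0.33 with CCF642-34.

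The 3 ERGIC genes encode membrane proteins that cycle between the ER and Golgi. ERGIC1 measured 661.3 and 687.2 CPM with DMSO, 531.4 and 546.6 CPM with CCF642 and 582.6 and 592.3 CPM with CCF642-34. ERGIC2 measured 104.8 and 103.6 CPM with DMSO, 75.41 and 85.95 CPM with CCF642 and 83.24 and 89.47 CPM with CCF642-34. Every treated library of either gene lay below both DMSO libraries. ERGIC1 was called lower at −0.19 (SE 0.038, adjusted p = 2.69e-05) with CCF642 and at −0.11 (SE 0.038, adjusted p = 0.0125) with CCF642-34. The values of ERGIC2 were −0.24 (SE 0.059, adjusted p = 6.15e-04) and −0.18 (SE 0.059, adjusted p = 0.00857) in the same order. With CCF642-34, the ERGIC1 call was lost without DMSO replicate 2 (−0.080) or CCF642-34 replicate 1 (−0.10), and the ERGIC2 call without DMSO replicate 1 (−0.17) or CCF642-34 replicate 1 (−0.13). With CCF642, the ERGIC2 call was lost without CCF642 replicate 1 (−0.14). The linear model of each gene alone called neither ERGIC1 nor ERGIC2 with CCF642-34 and called ERGIC1 with CCF642. ERGIC3 measured 159.1 and 153.8 CPM with DMSO, 144 and 144.2 CPM with CCF642 and 162.8 and 154.4 CPM with CCF642-34 and was called with neither compound, at 0.11 (SE 0.048, adjusted p = 0.0503) with CCF642-34 and 0.016 (SE 0.048, adjusted p = 0.789) with CCF642. ERGIC3 was called higher with CCF642-34 without CCF642-34 replicate 2 (0.15) and without either CCF642 library (0.11).

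The p24 proteins are receptors for GPI-anchored cargo that travel in both coats. All 4 were called higher with CCF642-34, and with CCF642 3 were higher and 1 was lower. TMED7 measured 60.81 and 62.28 CPM with DMSO, 88.78 and 92.19 CPM with CCF642 and 86.68 and 96.59 CPM with CCF642-34 and rose most, by 0.68 (SE 0.06, adjusted p = 5.29e-14) with CCF642 and 0.65 (SE 0.06, adjusted p = 2.82e-13) with CCF642-34. TMED10 measured 274.6 and 271.5 CPM with DMSO, 225 and 225.5 CPM with CCF642 and 281.3 and 291.9 CPM with CCF642-34. Its CCF642 libraries were the lowest, and those with CCF642-34 lay slightly above DMSO. TMED10 was called lower with CCF642 at −0.14 (SE 0.042, adjusted p = 0.00308) and higher with CCF642-34 at 0.16 (SE 0.042, adjusted p = 0.00126), and the latter call was not made with library size alone (0.069). TMED2 and TMED9 rose with CCF642-34 by 0.36 and 0.42 on the log2 scale. With CCF642, where their deposited CPM overlapped those of DMSO, TMED2 and TMED9 were called higher at 0.15 and 0.18, and these calls were lost with library size alone (0.012 and 0.045). The TMED2 call with CCF642 was also lost without DMSO replicate 1 (0.12), and the TMED9 call without CCF642 replicate 1 (0.085).

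KDEL receptors return ER chaperones that have escaped to the Golgi. KDELR2 measured 127.8 and 132.5 CPM with DMSO, 182.5 and 197.2 CPM with CCF642 and 180 and 185.5 CPM with CCF642-34, with every treated library above DMSO, a rise of 0.67 (SE 0.049, adjusted p = 7.79e-17) with CCF642 and 0.58 (SE 0.049, adjusted p = 2.37e-14) with CCF642-34. KDELR1 measured 358.4 and 365.7 CPM with DMSO, 303.9 and 286.1 CPM with CCF642 and 330.9 and 331.1 CPM with CCF642-34. All 4 treated libraries lay below DMSO, and after TMM scaling KDELR1 was called lower with CCF642 at −0.16 (SE 0.041, adjusted p = 7.05e-04), while its value with CCF642-34 was −0.039 (SE 0.041, adjusted p = 0.433). With library size alone KDELR1 was also called lower with CCF642-34 (−0.13). KDELR3 had between 17 and 53 reads per library and was the lowest member by far. It measured 0.7395 and 1.261 CPM with DMSO, 1.459 and 2.213 CPM with CCF642 and 1.862 and 1.151 CPM with CCF642-34. Its call with CCF642, at 0.58 (SE 0.23, adjusted p = 0.0242), was lost without DMSO replicate 1 (0.39) and without CCF642 replicate 2 (0.38), and its value with CCF642-34 was 0.37 (SE 0.23, adjusted p = 0.163).

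The COPI coatomer subunits were called higher in 7 of 7 cases with CCF642-34 and in 6 of 7 with CCF642. COPA, the α subunit, measured 439 and 436 CPM with DMSO, 811.6 and 841.1 CPM with CCF642 and 689.4 and 705.4 CPM with CCF642-34. CCF642 stood highest and CCF642-34 between it and DMSO, without overlap. COPA rose by 1.05 (SE 0.037, adjusted p = 9.85e-29) with CCF642 and by 0.76 (SE 0.037, adjusted p = 6.74e-23) with CCF642-34. COPE, the ε subunit, measured 270.6 and 255.4 CPM with DMSO, 281.9 and 277 CPM with CCF642 and 305.2 and 298.4 CPM with CCF642-34 and changed least among the called subunits, by 0.22 (SE 0.043, adjusted p = 1.33e-05) with CCF642 and 0.29 (SE 0.043, adjusted p = 1.09e-07) with CCF642-34. The COPE call with CCF642 was lost with library size alone (0.088). COPZ1, a ζ subunit, measured 137.2 and 136.1 CPM with DMSO, 127.6 and 133.2 CPM with CCF642 and 161.1 and 160.1 CPM with CCF642-34 and was called with CCF642-34 only, at 0.32 (SE 0.049, adjusted p = 2.11e-07), against 0.066 (SE 0.049, adjusted p = 0.243) with CCF642. The other 4 subunits rose by 0.64 (COPB2) to 0.95 (ARCN1) with CCF642 and by 0.52 (COPB2) to 0.88 (ARCN1) with CCF642-34.

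ARF1 and ARF4 are GTPases that bring coatomer to membranes. ARF4 measured 130.9 and 129.8 CPM with DMSO, 300.1 and 283.7 CPM with CCF642 and 282.6 and 294.3 CPM with CCF642-34. Each treated library lay far above DMSO, and the compounds overlapped. ARF4 rose by 1.29 (SE 0.044, adjusted p = 2.91e-29) with CCF642 and by 1.23 (SE 0.044, adjusted p = 3.44e-28) with CCF642-34, the second largest change of the members with each compound. ARF1 measured 960.6 and 988.1 CPM with DMSO, 1128 and 1159 CPM with CCF642 and 1307 and 1270 CPM with CCF642-34. Its groups were separate and CCF642-34 stood highest, with a rise of 0.49 (SE 0.036, adjusted p = 1.27e-16) against 0.37 (SE 0.036, adjusted p = 1.53e-12) with CCF642.

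Compared directly, the compounds differed in 22 of the 42 members, 10 of them higher and 12 lower for CCF642-34. Of all listed genes, 15.9% were called higher and 17.4% lower in this comparison. No member differed by 2-fold between the compounds, and the median over members was −0.062, against 0.0093 over all listed genes. With library size alone, 14 members were called higher and 9 lower, and of all listed genes 2406 were higher and 1488 lower. The lowest values were those of SEC24A at −0.68 (SE 0.045, adjusted p = 5.01e-17), SEC16A at −0.48 (SE 0.042, adjusted p = 5.24e-13) and SEC24B at −0.41 (SE 0.06, adjusted p = 4.11e-07). The highest were those of TMED10 at 0.30 (SE 0.042, adjusted p = 1.65e-07), PREB at 0.27 (SE 0.047, adjusted p = 1.30e-05), COPZ1 at 0.25 (SE 0.049, adjusted p = 5.12e-05) and LMAN2 at 0.25 (SE 0.042, adjusted p = 4.28e-06).

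Counted by role, the calls between the compounds took different directions. Among the 14 cargo and KDEL receptors, 7 were called higher with CCF642-34 than with CCF642 and 0 lower, with a median of 0.11. Among the 28 coat, GTPase, exit site, tether and SNARE genes, 3 were called higher (PREB, COPZ1 and ARF1) and 12 lower, with a median of −0.10. This division was chosen after the values had been seen, and no test was made of it. Across the 16 alternatives to this fit, receptors called lower numbered 0 or 1 and receptors called higher 1 to 9, and the numbers for the other 28 genes were 4 to 14 lower and 1 to 5 higher. The smallest numbers came from a linear model fitted to each gene alone, in which TMED10 and COPZ1 were called higher and SAR1A, SEC24A, SEC16A and COPA lower.

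Several smaller differences between the compounds rested on single libraries. Without CCF642-34 replicate 1 the calls of TFG (−0.14), SEC22B (−0.15), STX5 (−0.12), KDELR1 (0.12), COPB2 (−0.10) and ARF1 (0.10) were lost. Without CCF642-34 replicate 2 those of SEC22B (−0.18), LMAN1 (0.12) and KDELR1 (0.13) were lost, and without CCF642 replicate 2 those of SEC22B (−0.15) and KDELR1 (0.083). Differences that were not called with all libraries were called for SAR1B (−0.19), SEC24C (−0.13), SEC13 (−0.14) and ERGIC1 (0.10) without CCF642 replicate 2. The same held for SEC23B (−0.13), BET1 (0.20), KDELR2 (−0.16) and ARCN1 (−0.13) without CCF642 replicate 1, and for SAR1B (−0.19) without CCF642-34 replicate 2. For 20 members no difference was called, and outside KDELR3 their 95% intervals ran from no lower than −0.24 to no higher than 0.27 on the log2 scale. SEC24D, the member with the largest change, differed between the compounds by −0.062 (95% interval −0.14 to 0.021), and ARF4 by −0.061 (−0.15 to 0.028). These intervals leave room for small differences.

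**Figure D4:**
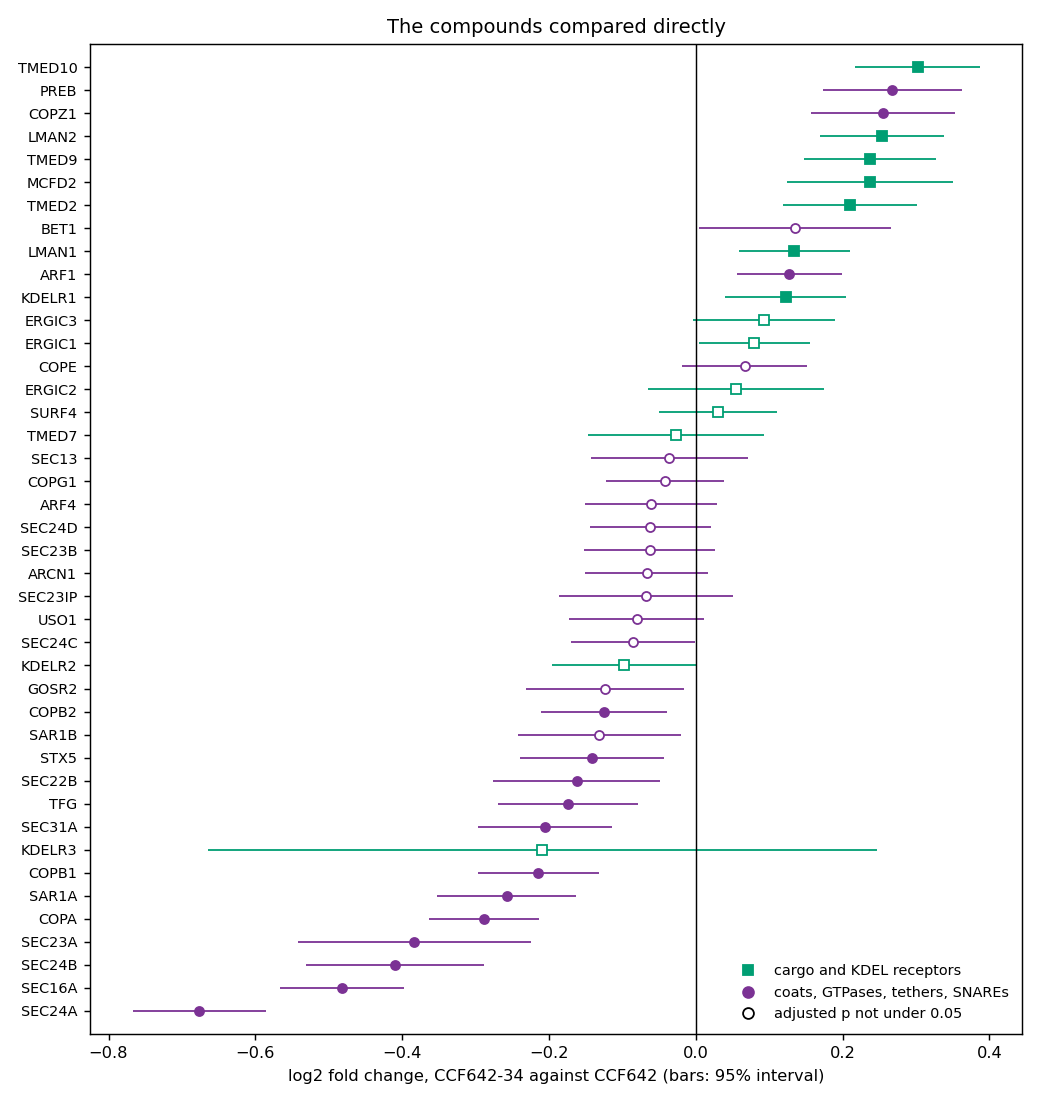
Log2 fold change between the compounds, CCF642-34 against CCF642, for the 42 members in order (horizontal axis), with 95% intervals. Squares are the 14 cargo and KDEL receptors and circles the other 28 genes, and open symbols had an adjusted p of 0.05 or more. SEC24A (−0.68) and SEC16A (−0.48) lie lowest and TMED10 (0.30) highest.

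Because paralogs changed unequally, the make-up of several families differed after treatment. Levels are compared here as CPM per kilobase of exon, with exon lengths from GENCODE 29 on GRCh38, which is not the build of the processing notes. Of the summed level of the 4 SEC24 genes, SEC24D took 31.4% and 30.0% with DMSO, 45.9% and 48.0% with CCF642, and 51.1% and 50.8% with CCF642-34. SEC24C, the largest share with DMSO at 46.7% and 48.0%, took 30.5% and 28.3% with CCF642 and 31.5% and 31.2% with CCF642-34. The order of SEC24C and SEC24D was thus exchanged in each treated library. SEC24A took 13.9% and 14.0% with DMSO, 17.0% and 17.1% with CCF642, and 11.8% and 12.2% with CCF642-34.

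KDELR2 rose from 18.9% and 19.1% of the KDEL receptor level with DMSO to 28.1% and 30.9% with CCF642 and to 26.2% and 26.8% with CCF642-34, with KDELR1 as nearly all of the rest. ARF4 made up 15.3% and 14.8% of the summed ARF1 and ARF4 level with DMSO, 26.1% and 24.5% with CCF642, and 22.3% and 23.5% with CCF642-34. SEC23B stayed the main SEC23 gene, between 90.9% and 93.3% in every library. The shares are given without a test.

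**Figure D5:**
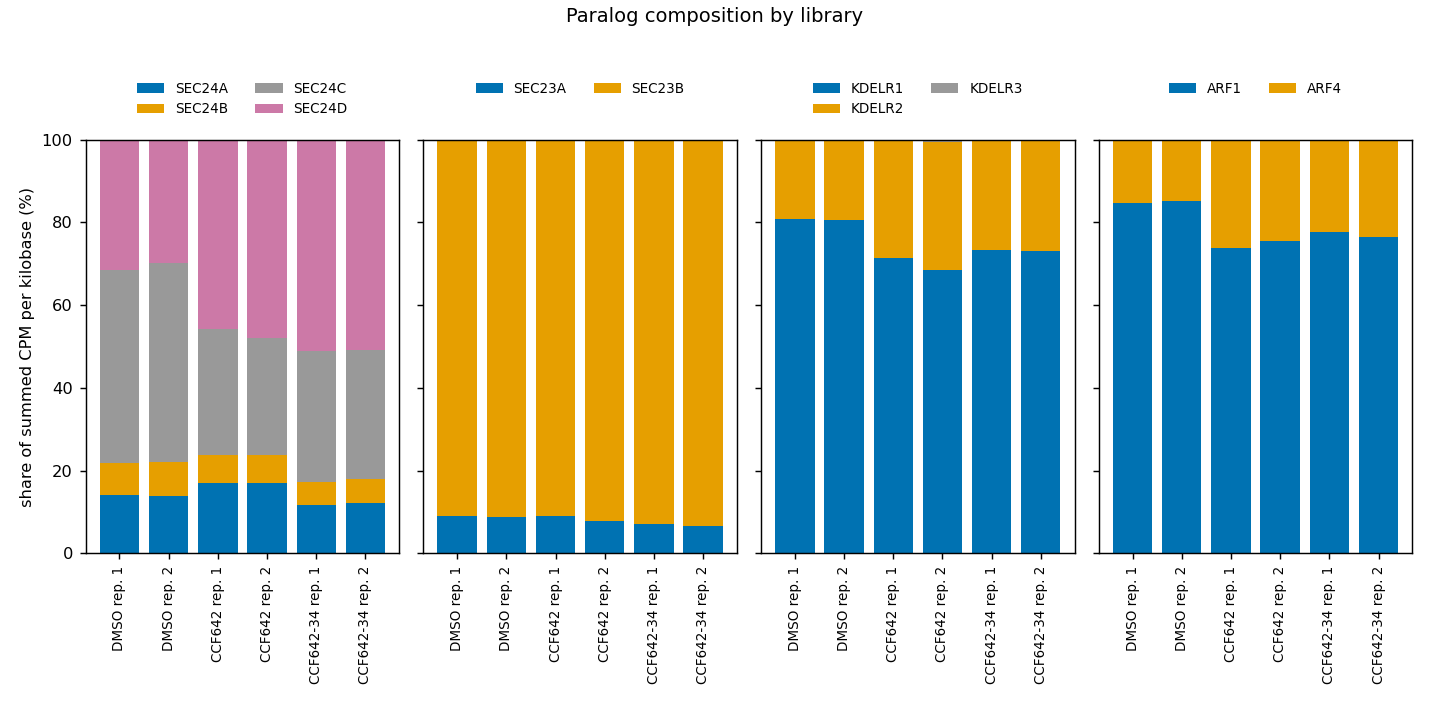
Share of each paralog in the summed CPM per kilobase of its family (vertical axis, percent) in each of the 6 libraries. SEC24D (pink) widens from 30.0% and 31.4% with DMSO to between 45.9% and 51.1% in the treated libraries, and KDELR3 is too low to be seen.

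By level per kilobase, ARF1 led the members with a mean of 443.3 CPM per kilobase with DMSO, followed by TMED9 (232) and COPE (217.4). SEC24D was 25th of the 42 with DMSO at 45.5 CPM per kilobase, below COPZ1 (46.2) and SEC23B (47.9), and averaged 123.5 with CCF642 and 122 with CCF642-34. The lowest were KDELR3 (0.527), SEC23A (4.65) and SEC22B (9.56). Pseudogenes named by a member's symbol, a P and a number stand in the annotation for 8 members (SAR1A, SEC24A, SEC13, BET1, MCFD2, TMED10, ARF1 and ARF4). Pseudogenes named in other ways were not searched for. How reads shared with such copies were counted is not given in the sources used here, so the levels of members with copies are less certain.

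The rest of the ER-Golgi route had smaller median changes against DMSO than the members. Of 76 further genes named for this route (other exit factors, golgins, tethers, SNAREs, cargo receptors and ARF regulators), 73 were listed. With CCF642-34, 44 were called higher and 7 lower, with a median log2 fold change of 0.27, and with CCF642 41 were higher and 12 lower, with a median of 0.25. The 17 other SNAREs were near the members, with medians of 0.45 with CCF642-34 and 0.51 with CCF642. Of them, 14 were called higher with each compound. The 29 other tethers had medians of 0.24 and 0.13 in the same order, and the 6 other cargo receptors −0.0014 and −0.0054. Between the compounds 9 of the 73 (12.3%) were called higher and 12 (16.4%) lower with CCF642-34, against 15.9% and 17.4% of all listed genes. Among genes called with both compounds and ranked by the mean of the 2 log2 fold changes, GOLGA2, BET1L and YIPF5 had the largest increases. GOLGA2, the golgin GM130, measured 70.81 and 71.2 CPM with DMSO, 205.8 and 184.8 CPM with CCF642 and 144.3 and 140.6 CPM with CCF642-34, a rise of 1.58 (SE 0.052, adjusted p = 6.21e-30) with CCF642 and 1.08 (SE 0.052, adjusted p = 4.07e-23) with CCF642-34. The CCF642-34 libraries of GOLGA2 lay between the other groups, and its difference between the compounds was −0.49 (SE 0.052, adjusted p = 1.52e-10).

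BET1L, a SNARE of the Golgi stack, rose by 1.32 with CCF642 and 1.01 with CCF642-34, and YIPF5, a membrane protein of the early Golgi, by 1.10 and 1.02. By the same ranking, the largest decreases were those of ARF3, GORASP1 and PDCD6. ARF3, a paralog of ARF1, measured 120.9 and 126.3 CPM with DMSO, 71.96 and 74.18 CPM with CCF642 and 90.09 and 85.04 CPM with CCF642-34. Every treated library of ARF3 lay below DMSO while ARF1 and ARF4 lay above it. Its log2 fold changes were −0.62 (SE 0.056, adjusted p = 1.58e-13) with CCF642 and −0.40 (SE 0.056, adjusted p = 2.64e-08) with CCF642-34. Those of GORASP1, a Golgi stacking protein that binds GOLGA2, were −0.42 and −0.51 in the same order. Those of PDCD6, a calcium sensor that binds SEC31A, were −0.33 and −0.37.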

How the data were processed

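MM1.S cells received DMSO or 3 µM of CCF642 or of CCF642-34 for 6 h (2 libraries each), and oligo(dT)-enriched mRNA was sequenced after random-hexamer priming. The authors deposited CPM values for 11048 gene symbols per library, a unit read from the values, which were 100% whole multiples of a read's share. The submitters' processing notes name STAR, edgeR 3.24.3, limma 3.38.3 and hg19, with no role; annotation, strand setting and filter are not given in the sources used here. The listed genes held 99.9% of each library's reads. Columns of the whole-series table repeat the library values and were not used.

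CPM were scaled by TMM (edgeR 4.0.16), increased by a pseudocount of 1 and tested on the log2 scale with limma 3.58.1 in R 4.3.3, with 3 groups in 1 fit, no block and two-sided p values adjusted over all 11048 genes. The fit had 3 residual and 42.9 prior degrees of freedom and was tested on simulated data. The members and gene lists were chosen with earlier results of these data known. In each role, the members with the largest and smallest change, those changed at least 2-fold and those called in opposite directions were described in full, as were the 3 largest increases and decreases among other ER-Golgi genes. Any further gene was named because it is a member or a cell type marker. Recovered reads served edgeR and DESeq2 1.42.0 as alternatives; the others were DESeq2 size factors, library size alone, pseudocounts of 0.1 and 4, a mean CPM of at least 5, fits of the compared groups alone, a gene-wise linear model, a replicate block and fits without each library. Positions and exon lengths came from GENCODE 29 (GRCh38) and promoters from RefSeq (GRCh38.p14); no coordinate was moved between builds.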

Additional observations from a re-analysis of the deposited data

How the results depend on the processing

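The median log2 fold changes of the 42 members kept their direction under every alternative run. With CCF642-34 the median was 0.34 with library size alone, 0.47 with a pseudocount of 0.1, 0.47 with edgeR and 0.46 with DESeq2 on recovered reads, and 0.43 to 0.49 without single libraries. With CCF642 it was 0.48 with library size alone, 0.62 with a pseudocount of 0.1, 0.56 with a pseudocount of 4, 0.59 with a mean CPM of at least 5, 0.62 with edgeR and with DESeq2, and 0.55 to 0.61 without single libraries. Between the compounds it was −0.018 with library size alone and −0.067 to −0.024 without single libraries. Members called with CCF642-34 numbered 34 to 38 and with CCF642 37 to 40 without single libraries, and 16 to 26 between the compounds. A gene-wise linear model, which shares no variance between genes, called 6 members (2 higher, 4 lower) and 4 of the other ER-Golgi genes between the compounds, with 21 members at an unadjusted p under 0.05, and it called 739 of all listed genes against 3685 in the shared fit.

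For the 73 other ER-Golgi genes, the medians with library size alone were 0.18 with CCF642-34, 0.11 with CCF642 and 0.0402 between the compounds, the last a reversal of a median near 0. Without single libraries they ran from 0.24 to 0.27, from 0.20 to 0.25 and from −0.025 to 0.00883, turning above 0 when CCF642 replicate 1 (0.00883) or CCF642-34 replicate 2 (0.00453) was left out, and 13 to 24 were called between the compounds. Values near 0 changed sign with library size alone for SAR1B with CCF642-34 (−0.0318), for ERGIC3 (−0.1173, then called lower) and COPZ1 (−0.0675) with CCF642, and between the compounds for SEC13 (0.00799), TMED7 (0.0162) and COPG1 (0.00204). Leaving out each library in turn, 7 single-member values spanned 0: SAR1B with CCF642-34 (−0.000956 without CCF642-34 replicate 2 to 0.117), ERGIC3 with CCF642 (−0.00736 without DMSO replicate 2 to 0.0397) and, between the compounds, SEC23B (−0.128 to 0.00146 without CCF642 replicate 2), SEC13 (−0.142 to 0.0696 without CCF642 replicate 1), ERGIC2 (−0.0422 without CCF642 replicate 1 to 0.153), TMED7 (−0.0995 to 0.0465 without CCF642-34 replicate 1, also above 0 at 0.00345 when CCF642 replicate 2 was left out) and KDELR3 (−0.418 to 0.00123 without CCF642-34 replicate 2). In all, the members' single comparisons kept their direction and their side of the threshold in 649 cases with CCF642, 646 with CCF642-34 and 617 between the compounds, changed sign in 3, 2 and 9, lost a call in 19, 14 and 30, and gained a call in 0, 9 and 14. The causes were not tested.

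The replicate numbers did not pair the libraries, since deviations of same-numbered libraries correlated across genes at −0.0089, −0.056 and 0.047. A replicate block left the calls at 37, 40 and 22 members. Depth limits KDELR3, which had 17 to 53 reads per library.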

Other observations

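Over all 8871 listed genes with a promoter in the RefSeq table, 111 held the UPRE core, and of these 45% were called higher and 19.8% lower with CCF642-34, against 30% and 28.4% of the 8760 without it. The cAMP response element TGACGTCA, which no member promoter held, stood in 345 listed genes. Of these, 44.9% were called higher and 19.7% lower with CCF642 at a median of 0.14 on the log2 scale, and 42.3% and 21.4% with CCF642-34. Of the 8526 without that element, 31.5% were called higher and 32.1% lower with CCF642, and 29.7% and 28.5% with CCF642-34. ERSE stood in 16 listed genes, of which 10 were called higher and 0 lower with CCF642-34, with a median of 0.33. With CCF642, 10 of them were called higher and 1 lower, with a median of 0.33. Of the 8855 without ERSE, 30.2% were called higher and 28.3% lower with CCF642-34, and 32% and 31.6% with CCF642. These shares are descriptions, and no test was made of them.

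Among the plasma cell markers, JCHAIN measured 4321 and 4316 CPM with DMSO, 1792 and 1875 CPM with CCF642 and 2339 and 2357 CPM with CCF642-34, and SDC1 measured 869.8 and 850.5, 238.7 and 252, and 383.2 and 359.4 CPM in the same order. IRF4 went the other way, at 681.9 and 657.1, 1127 and 1147, and 1358 and 1355 CPM. SLAMF7 also rose, at 677 and 672.3, 800.4 and 786.9, and 781.1 and 788.2 CPM. In deposited CPM, PRDM1 was higher with CCF642 (446.6 and 471 against 404.4 and 401.8 CPM) but not with CCF642-34 (399.3 and 397.6 CPM). The TMM factors were 1.054 and 1.053 with DMSO and 0.987 and 0.992 with CCF642-34. Divided by them, both CCF642-34 libraries lie above DMSO for PRDM1, and so for XBP1 below. CD38, TNFRSF17, MZB1 and POU2AF1 lay below DMSO in every treated library. XBP1, whose spliced form is known to bind the UPRE, measured 1368 and 1358 CPM with DMSO, 1391 and 1389 CPM with CCF642 and 1316 and 1311 CPM with CCF642-34, a level that does not tell the spliced form from the unspliced one. COL1A1, 1 of the fibroblast markers, measured 1.087 and 1.495, 8.995 and 10.53, and 2.741 and 3.525 CPM, while 2 of the 4 fibroblast markers were not listed. PDGFRB, the other listed fibroblast marker, did not rise, at 1.653 and 1.355, 1.604 and 1.195, and 1.265 and 1.151 CPM. The part of these changes in the members' values was not tested.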
